A study of Mus musculus with 28 samples.

Results

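The genes described here encode 9 receptor chains through which myeloid growth factors and cytokines act on blood cells: Csf1r, Csf2ra, Csf2rb, Csf2rb2, Csf3r, Il3ra, Il6ra, Flt3 and Kit. They were chosen by symbol from the 55450 genes of the RNA-seq table, and all 9 were present in it. RNA-seq was available for 12 libraries of C10 cells, with 3 biological replicates at each of 0h, 1h, 12h and 48h. C10 is a single mouse Pre-B cell line derived from HAFTL cells, and every library, 0h included, carries the CEBPalpha-ER transgene, a fusion of C/EBPα with the hormone-binding part of the estrogen receptor that enters the nucleus when β-estradiol is present. The 0h cells were uninduced. The 1h, 12h and 48h cells received 100 nM β-estradiol together with 10 nM IL-3 and with CSF-1, so the ligands of some of these receptors were part of the treatment. No library had only one of these agents, and no untreated library was taken later than 0h, so the effects of the agents and of time in culture cannot be told apart. Promoter Capture Hi-C, which lists the DNA fragments that contact promoter fragments, gave 1 merged list per time point.

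Receptors of this family fall into a few structural kinds. CSF1R, KIT and FLT3 are receptor tyrosine kinases that pair with themselves when their ligand binds. The receptors for IL-3 and GM-CSF each join a ligand-specific alpha chain (IL3RA or CSF2RA) to a shared signalling chain, the common beta chain encoded by Csf2rb. The mouse has a further beta chain gene, Csf2rb2, whose product pairs with the IL-3 alpha chain. IL6RA binds IL-6 and signals through gp130, encoded by Il6st, and CSF3R binds G-CSF as a pair of identical chains. Beta chains, gp130 and CSF3R signal through JAK kinases and STAT factors. CSF-1 supports the survival and growth of macrophages, whereas Pre-B cells are of the lymphoid lineage.

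The upstream sequences of 3 members with a called increase are shown because they are the stretches next to the start site in which letters of known myeloid motifs were searched. They are the 250 bases before the RefSeq start site in GRCm38.p6, all on the minus strand and written in the direction of the gene. They come from chr15:78305722-78305971 for Csf2rb2, chr19:61228419-61228668 for Csf2ra and chr3:89913197-89913446 for Il6ra. Capitals mark GAGGAA, the letters of a PU.1 site, which read TTCCTC when the match is on the other strand, and TTCNNNGAA, the letters of a STAT site.
Csf2rb2: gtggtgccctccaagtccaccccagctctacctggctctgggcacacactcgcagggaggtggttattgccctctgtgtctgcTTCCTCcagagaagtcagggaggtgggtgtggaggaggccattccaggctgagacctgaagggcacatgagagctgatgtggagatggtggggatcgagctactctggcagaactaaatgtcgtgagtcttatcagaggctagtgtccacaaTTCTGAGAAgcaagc
Csf2ra: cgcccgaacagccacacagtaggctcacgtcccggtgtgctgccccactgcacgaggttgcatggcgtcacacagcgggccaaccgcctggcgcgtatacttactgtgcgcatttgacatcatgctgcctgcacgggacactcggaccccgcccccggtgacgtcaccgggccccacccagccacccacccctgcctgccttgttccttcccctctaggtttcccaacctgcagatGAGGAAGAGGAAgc
Il6ra: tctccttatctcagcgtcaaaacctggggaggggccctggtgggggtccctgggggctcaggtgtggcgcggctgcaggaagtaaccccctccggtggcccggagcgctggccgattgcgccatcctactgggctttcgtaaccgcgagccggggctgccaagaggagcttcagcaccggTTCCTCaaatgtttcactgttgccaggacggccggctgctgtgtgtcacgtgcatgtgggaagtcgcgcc
Upstream windows of 7 of the 9 members were searched. PU.1 letters were found on either strand in Csf2ra, where 2 copies begin 14 and 8 bases before the start, in Csf2rb2 (-167), Il6ra (-70), Csf3r (-86) and Kit. They were in 23.3% of the 32851 upstream windows of the same length. STAT letters were in Csf2rb2 (-15) and in 7.02% of all windows. The letters TTGCNNAA of a C/EBP site were in Il3ra (-134) and in 9.56% of all windows, and Flt3 held none of the 3 motifs. The Csf2ra, Csf3r, Il3ra and Kit windows reach into the gene as GENCODE M21 draws it, and the others do not. The matches of Csf3r and Il3ra and the second of Csf2ra lie inside that gene model, the first of Csf2ra spans its edge, and those of Csf2rb2, Il6ra and Kit lie outside. A match describes letters and not a bound site, and Kit, which was listed at 0 TPM in every library, held a match as well.

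RNA levels are given as TPM (the share of a library's transcripts that a gene takes, corrected for gene length), so levels of different genes can be compared on this scale. TPM keep no record of depth. A ribosomal RNA locus took between 70.3% and 82.9% of the TPM of a library, and the TPM outside the 20 most abundant genes was lowest at 48h (58343 in replicate 1) and highest at 1h (131784 in replicate 3). Replicate 3 had the lowest ribosomal share at each time (76.9%, 70.3%, 72.8% and 75.7%). It stood apart in the remaining TPM at 48h, with 94692 against 58343 and 65622, and at 12h, with 127273 against 90879 and 99364. The labels number the 4 libraries of replicate 3 after the 8 others. The deviations of replicate 3 libraries from their time point correlated across genes with each other in 6 of 6 pairs (r between 0.070 and 0.26). Their correlations with replicates 1 and 2 were below 0 in 24 of 24 (r between -0.18 and -0.0059). Deviations within a time point sum to 0, so the second count largely follows from the first and is no separate sign. Member counts without these libraries are given where they differ. Every level therefore depends on this share, and changes were also computed after median-of-ratios scaling, which sets the typical gene equal between libraries. The summed TPM of 8 Pre-B markers lay between 218 and 255 at 0h and between 26.4 and 37.9 at 48h. That of 7 macrophage markers lay between 3.10 and 4.47 at 0h and between 650 and 773 at 48h. Most of the latter sum was Mmp12, at 490, 575 and 409 TPM in the 48h libraries. Adgre1, a defining macrophage marker, was at or near 0 throughout, with a highest value of 0.29 TPM. All 7 mast cell and basophil markers were at 0 in all libraries, the 6 T and NK cell markers summed to at most 0.20 TPM and the 6 erythroid and megakaryocyte markers to at most 1.36. The 6 neutrophil markers summed to between 7.93 and 14.3 TPM at 12h and to at most 1.77 at other times. Camp led that list with up to 10.8 TPM. Prtn3 was next, at 1.32, 2.42 and 3.33 TPM at 12h and at most 1.19 TPM at other times. Mpo was at 0 throughout, and Ly6g, Elane and Ltf were above 0 in 1 library each. The part of these cells, or of the ribosomal share, in the changes below was not tested beyond the scaled values. In bulk RNA, fewer cells with a transcript and less RNA per cell cannot be told apart.

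Induction was accompanied by higher RNA of 6 of the 9 receptor genes, at different times. Csf2rb and Il6ra rose within 1h, and Csf1r, Csf2ra and Csf2rb2 were higher from 12h. Il3ra changed least of the 6. Csf3r, Flt3 and Kit stayed at or near 0 TPM and were not tested for that reason. The 6 tested genes were among the 16415 genes with a mean of at least 0.1 TPM. Since a gene passes this limit through any time point where it is high, no share is drawn from them. Calls came from limma and needed a log2 fold change beyond 1 as well as a p, adjusted by Benjamini-Hochberg, under 0.05. Every log2 fold change is on the scale of log2(TPM + 0.1).

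**Figure D1:**
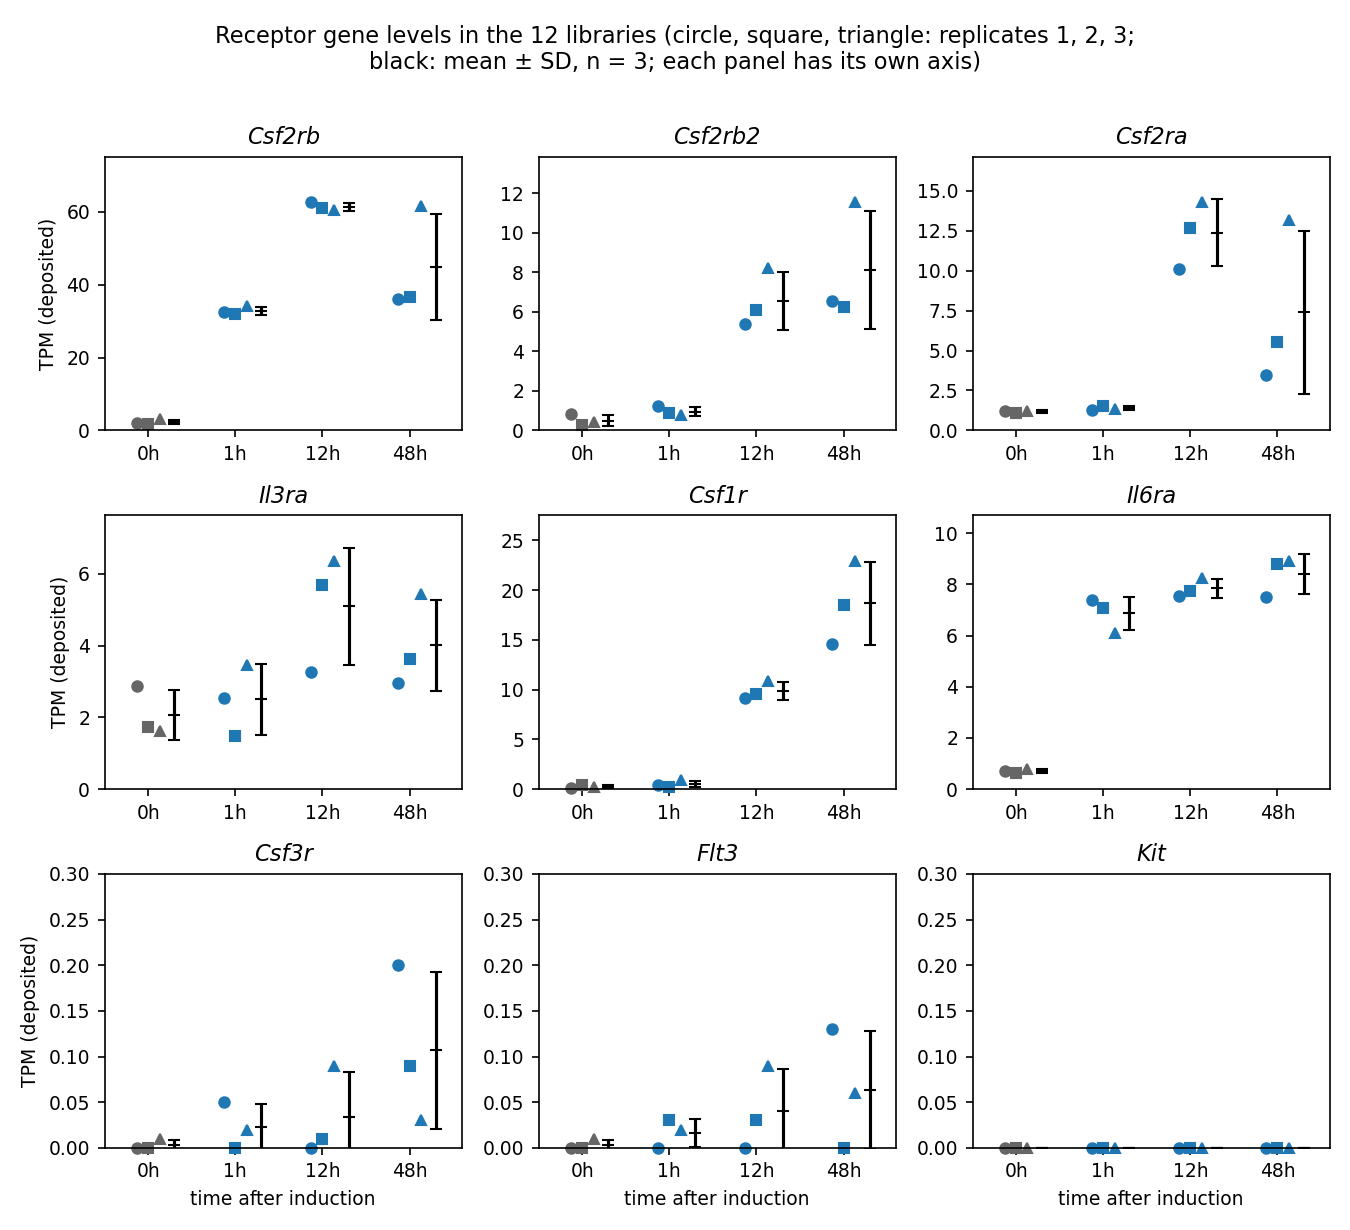
Deposited TPM of the 9 receptor genes (y axis, one scale per panel) in the 3 libraries of each time point (x axis), with the mean and SD in black. Csf2rb and Il6ra are already high at 1h, Csf1r is highest at 48h, and Csf3r, Flt3 and Kit do not exceed 0.20 TPM.

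Csf2rb, the shared beta chain of the IL-3, IL-5 and GM-CSF receptors, had the highest mean level of the 9 at every time point. It was at 2.05, 1.85 and 3.04 TPM in the 3 libraries of 0h and at 32.5, 32.0 and 34.1 TPM in those of 1h. It reached 62.7, 61.0 and 60.5 TPM at 12h and stood at 36.1, 36.6 and 61.6 TPM at 48h. The lowest induced library was thus more than 10 times the highest uninduced one, and at 48h replicates 1 and 2 lay together while replicate 3 was at the level of 12h. The log2 fold change against 0h was 3.80 ± 0.23 (SE) at 1h (limma adjusted p = 2.68e-06), 4.70 ± 0.23 at 12h (limma adjusted p = 1.05e-07) and 4.20 ± 0.23 at 48h (limma adjusted p = 7.13e-08). Without replicate 3 of 48h, the last value was 3.95. Each SE of a log2 fold change comes from 1 model of all 12 libraries, so it is the same at each time. The Csf2rb levels themselves had an SD of 1.08 TPM at 1h and 14.6 TPM at 48h.

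Csf2rb2, the beta chain that pairs with the IL-3 alpha chain, followed later. Its levels were 0.81, 0.26 and 0.41 TPM at 0h and 1.21, 0.89 and 0.76 TPM at 1h, and these ranges overlapped. At 12h it was at 5.38, 6.11 and 8.22 TPM and at 48h at 6.55, 6.24 and 11.6 TPM. The libraries of these 2 times lay above all those of 0h and 1h and overlapped each other. The log2 fold change against 0h was 0.91 ± 0.36 (SE) at 1h (limma adjusted p = 0.0807, not called), 3.58 ± 0.36 at 12h (limma adjusted p = 2.50e-05) and 3.84 ± 0.36 at 48h (limma adjusted p = 4.76e-06). Leaving out replicate 1 of 0h, the highest of its group, made the 1h difference a called 1.28 (limma adjusted p = 0.0210).

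Csf2rb and Csf2rb2 are neighbours on chromosome 15 (78325752 to 78353847 on the plus strand and 78282507 to 78305721 on the minus strand, GRCm38) and similar in sequence. Of the 100-base windows of the longest Csf2rb transcript, 6.96% were found unchanged in a Csf2rb2 transcript, and 7.20% in the reverse direction. Reads from such windows must be divided by estimation. The sum of both genes does not depend on that division. In the 0h libraries it was 2.81 ± 0.67 TPM (SD, n = 3), and 1h libraries had 33.8 ± 0.98 TPM. The 12h mean was 68.0 ± 0.79 TPM and the 48h mean 52.9 ± 17.6 TPM, the wide spread coming with replicate 3 (73.2 TPM against 42.7 and 42.8). The 48h libraries were all above the 0h libraries, by 4.22 on the log2 scale. The two-sided exact permutation test gave p = 0.1, below which groups of 3 cannot go.

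The alpha chains were slower than Csf2rb. Csf2ra, the chain that binds GM-CSF (chromosome 19, 61223957 to 61228429, minus strand), was at 1.23, 1.10 and 1.21 TPM at 0h and at 1.30, 1.54 and 1.35 TPM at 1h. It then reached 10.1, 12.7 and 14.3 TPM at 12h. At 48h its 3 libraries differed by more than 3 times, at 3.46, 5.54 and 13.2 TPM, with replicate 3 again the highest and all 3 above 0h. Csf2ra was not called at 1h (log2 fold change 0.22 ± 0.37, SE) and rose at 12h (3.27 ± 0.37, limma adjusted p = 6.25e-05) and 48h (2.33 ± 0.37, limma adjusted p = 0.000330). Without replicate 3 of 48h the last change was 1.81 ± 0.24 and still called.

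Il3ra, the chain that binds IL-3 (chromosome 14, 14346275 to 14356011, plus strand), was the member with an appreciable level at 0h that changed least. Its levels were 2.86, 1.72 and 1.62 TPM at 0h, 2.55, 1.49 and 3.46 TPM at 1h, 3.26, 5.68 and 6.36 TPM at 12h and 2.97, 3.63 and 5.43 TPM at 48h. The 12h and 48h libraries lay above the 0h libraries, though by a small margin, and the 1h libraries overlapped them. The log2 fold change was 1.25 ± 0.37 (SE) at 12h (limma adjusted p = 0.0239, called) and 0.92 ± 0.37 at 48h (limma adjusted p = 0.0622, not called). After median-of-ratios scaling the calls changed places, with 0.93 at 12h (limma adjusted p = 0.0555) and 1.33 at 48h (limma adjusted p = 0.00642). The 12h call was also lost in 4 of the 6 fits that left out 1 library of 0h or 12h, and with replicates 1 and 2 alone (0.92, limma adjusted p = 0.149), so that 5 members were called higher at 12h.

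Because a ratio within a library does not depend on how the library was scaled, the chains were also set against each other as a description. The summed beta chains came to 0.889 ± 0.287 (SD, n = 3) times the summed alpha chains Csf2ra and Il3ra at 0h. This ratio was 8.96 ± 1.81 in the 1h libraries, 4.02 ± 0.936 in those of 12h and 5.08 ± 1.40 in those of 48h. The 3 libraries of 1h were above all others in this ratio and those of 0h below all others. Csf2rb made up 82.5 ± 9.4% of the beta chain TPM at 0h and 97.2 ± 0.71% at 1h, then 90.3 ± 2.1% after 12h and 84.8 ± 0.62% after 48h. The ratio of Csf2ra to Il3ra was 0.606 ± 0.161 at 0h and 0.645 ± 0.342 at 1h, and it was 2.53 ± 0.498 after 12h and 1.71 ± 0.649 after 48h, so Il3ra was the more abundant alpha chain at 0h and Csf2ra at 12h and 48h.

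**Figure D2:**
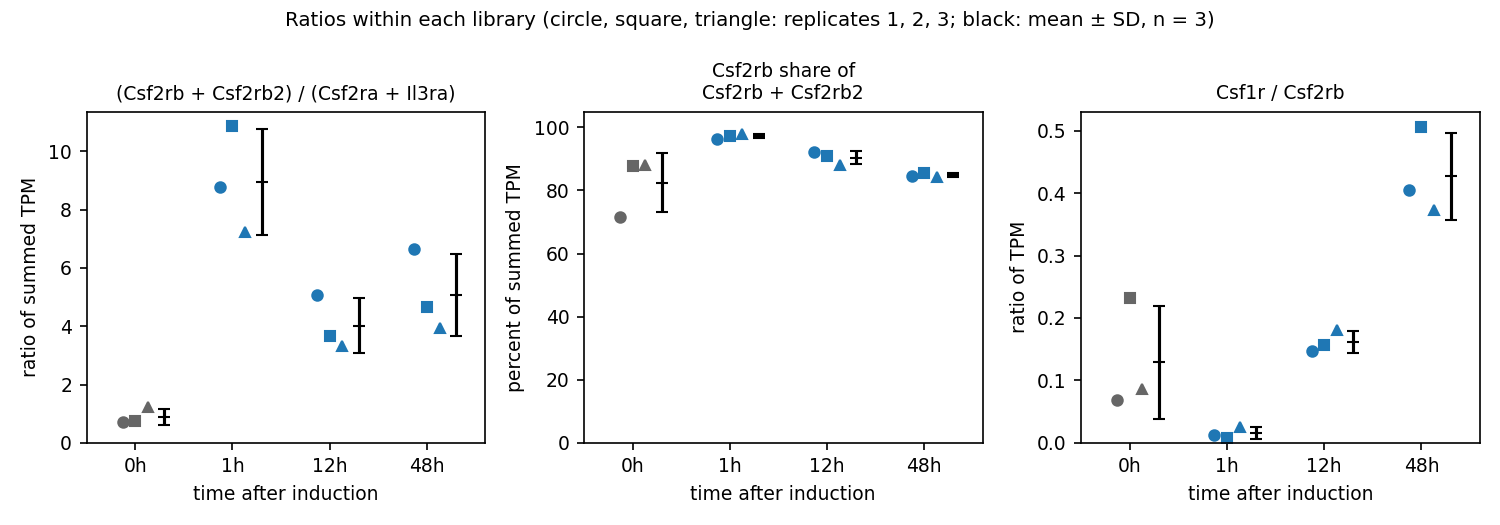
Ratios of receptor TPM within each of the 12 libraries by time point, with the mean and SD (n = 3) in black. The ratio of beta to alpha chains is highest at 1h, the share of Csf2rb among beta chains peaks at 1h, and Csf1r relative to Csf2rb is highest at 48h.

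Csf1r, the receptor for CSF-1 and IL-34, lies on chromosome 18 (61100598 to 61132149, plus strand). It was at 0.14, 0.43 and 0.26 TPM at 0h and at 0.39, 0.24 and 0.89 TPM at 1h, which overlapped. It rose to 9.19, 9.57 and 10.9 TPM at 12h and to 14.6, 18.5 and 22.9 TPM at 48h, with no overlap between 12h and 48h or with any earlier library. The log2 fold change against 0h was 0.62 ± 0.38 (SE) at 1h (not called), 4.80 ± 0.38 at 12h (limma adjusted p = 4.58e-06) and 5.69 ± 0.38 at 48h (limma adjusted p = 3.81e-07). The last was the largest change of the 6 tested members, in the deposited and in the scaled values (6.12). In every library Csf1r was below Csf2rb on the TPM scale, at a ratio of 0.129 ± 0.090 (SD, n = 3) in the 0h libraries. The 1h libraries had a lower ratio of 0.0152 ± 0.0097, those of 12h had 0.161 ± 0.017, overlapping 0h, and those of 48h had the highest, 0.427 ± 0.070. Exons of Csf1r and Hmgxb3 share bases, as do those of Il6ra and Gm42809 and of Il3ra and Gm48860, and the sources used here do not say that counting used the strand.

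Il6ra, the chain that binds IL-6 (chromosome 3, 89864059 to 89913196, minus strand), had the smallest standard error of the 6 tested members. Its levels were 0.70, 0.62 and 0.77 TPM at 0h, 7.39, 7.08 and 6.12 TPM at 1h, 7.55, 7.73 and 8.27 TPM at 12h and 7.52, 8.80 and 8.92 TPM at 48h. All induced libraries lay above all 0h libraries, and in the deposited TPM the 3 induced times lay close together. The log2 fold change against 0h was 3.13 ± 0.16 (SE) at 1h (limma adjusted p = 1.15e-06), 3.32 ± 0.16 at 12h (limma adjusted p = 1.00e-07) and 3.42 ± 0.16 at 48h (limma adjusted p = 2.30e-08). After scaling these changes were further apart, at 2.49 (1h), 3.00 (12h) and 3.84 (48h), and the scaled difference of 48h from 12h was 0.84 (limma adjusted p = 0.00137), under the fold threshold. Il6st, which encodes its signalling partner gp130, was at 1.64 TPM on average at 0h, 2.52 at 1h and 10.8 at 48h. Il6st relative to Il6ra was highest and most variable in the 0h libraries (4.34, 1.66 and 1.10, mean 2.37 ± 1.73, SD). It was 0.369 ± 0.041 (SD, n = 3) in the 1h libraries, 0.988 ± 0.079 in those of 12h and 1.29 ± 0.11 in those of 48h, with no overlap between these 3 times, while the 0h values overlapped those of 48h.

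The other 3 receptors were near or at 0. Csf3r, the G-CSF receptor, reached at most 0.20 TPM, in a 48h library, and was at or under 0.09 TPM in all others. Flt3, the receptor for FLT3 ligand, was at most 0.13 TPM. Kit, the stem cell factor receptor, was listed at 0 TPM in all 12 libraries. No fold change is given for these genes, and since TPM keep no depth, no upper limit can be put on the values at 0.

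Against 0h, 2 members were called higher at 1h, where 16.7% of all tested genes were, 6 at 12h (17.7% of all tested genes) and 5 at 48h (13.5%). No member was called lower, against 1.08%, 5.75% and 23.1% of all tested genes, and at an unadjusted p under 0.05 the count of lower members in limma was also 0 at each time. The median log2 fold change of the 6 tested members came to 0.76 (1h), 3.45 (12h) and 3.63 (48h), beside 0.59, 0.34 and -0.18 over all tested genes. After scaling, 2, 5 and 6 members were called higher. Scaling also moved the split over all tested genes, from 2746 higher and 178 lower to 656 and 463 at 1h, from 2903 and 944 to 1960 and 1543 at 12h, and from 2217 and 3793 to 3264 and 2889 at 48h, and the medians over all tested genes were 0.01, 0.06 and 0.09. The 3 comparisons share the 0h libraries and are not independent of each other.

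**Figure D3:**
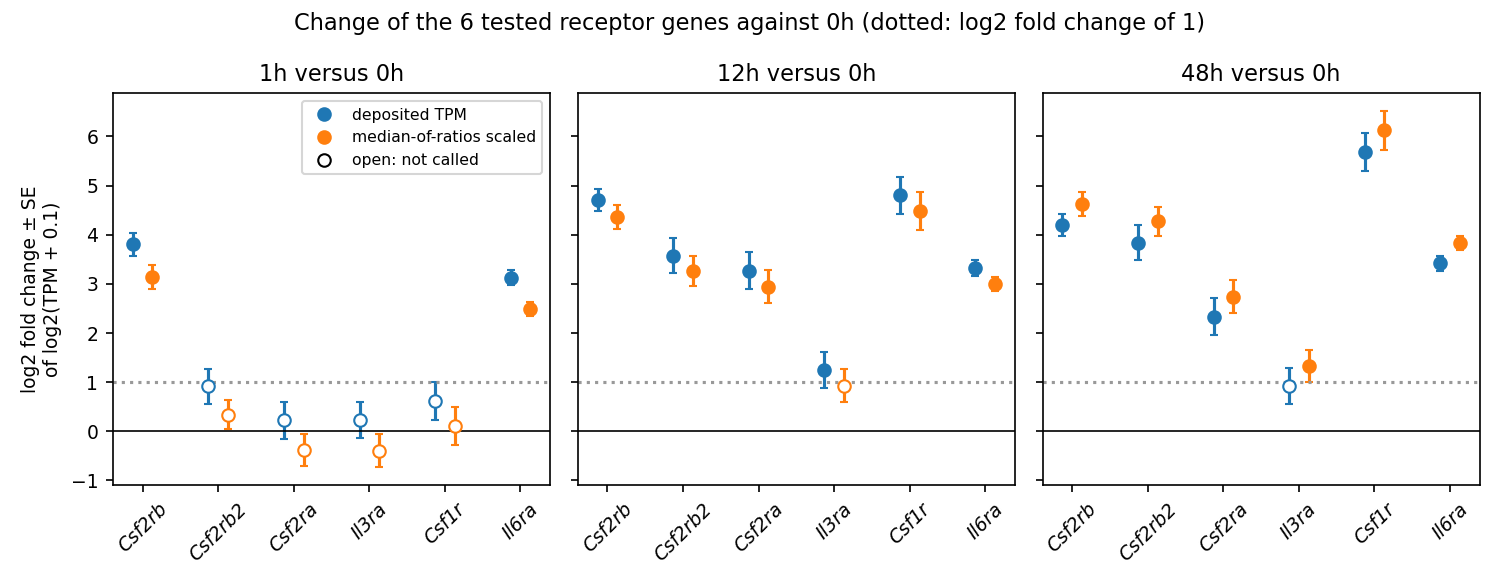
Log2 fold change against 0h with its SE for the 6 tested receptor genes, for the deposited TPM (blue) and after median-of-ratios scaling (orange), with filled points for called genes. Csf2rb and Il6ra are the called genes at 1h, and Il3ra is the gene whose call differs between the scalings at 12h and 48h.

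The order of the genes on the TPM scale shifted with time. At 0h the mean levels ran from Csf2rb (2.31) and Il3ra (2.07), which overlapped, through Csf2ra (1.18) to Il6ra (0.697), Csf2rb2 (0.493) and Csf1r (0.277), where neighbours overlapped. At 1h Csf2rb (32.9) and Il6ra (6.86) led without overlap with each other or with Il3ra (2.50). At 12h Csf2ra (12.4) was next after Csf2rb (61.4) and overlapped Csf1r (9.89). At 48h Csf1r (18.7) was next after Csf2rb (44.8), overlapping neither it nor Il6ra (8.41), while Il6ra, Csf2rb2 (8.12), Csf2ra (7.39) and Il3ra (4.01) overlapped from one to the next.

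The steps between induced time points were compared in the same model. From 1h to 12h, Csf1r (log2 fold change 4.18 ± 0.38, SE), Csf2ra (3.05 ± 0.37) and Csf2rb2 (2.66 ± 0.36) were called higher (limma adjusted p = 2.83e-05, 0.000186 and 0.000341), where 5.49% of all tested genes were higher and 10.6% lower. Csf2rb differed by 0.90 ± 0.23 (limma adjusted p = 0.0154), short of the fold threshold, and after scaling Csf2rb (1.22) and Il3ra (1.32) were called too, for 5 in all. From 12h to 48h no member was called in limma in either direction, where 27.4% of all tested genes were, 3.55% as higher and 23.8% as lower. At an unadjusted p under 0.05, 1 member was higher and 2 were lower. Csf1r differed by 0.89 ± 0.38 (limma adjusted p = 0.0942), and after scaling it (1.63) and Csf2rb2 (1.01) were called higher. Csf2ra differed by -0.94 ± 0.37 (limma adjusted p = 0.0702), and without replicate 3 of 48h it was called lower (-1.46, limma adjusted p = 0.000874), as it was with replicates 1 and 2 alone (-1.35, limma adjusted p = 0.0123). After scaling the difference was -0.20 (limma adjusted p = 0.723).

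Genes whose levels moved most like those of each member were looked up by Pearson's r of log2(TPM + 0.1) over the 12 libraries, among 8360 genes with a mean of at least 1 TPM. These are descriptions over libraries that fall into 4 time points. Csf1r was most like Itgb2 (r = 0.990), Lpp and Pld4, of which Itgb2 encodes the beta chain of leukocyte integrins. Csf2rb was most like Ier3 (0.997), Atrnl1 and Lyn (0.982), a kinase of the SRC family. Il6ra was most like Mknk1 (0.990), Atp7a and, again, Atrnl1. Csf2rb2 was most like Zfp710 (0.991), Csf2ra most like Cd81 (0.984), and Il3ra most like Acaa1a (0.936), the lowest of the 6 leading values.

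The genes that supply, transmit or limit these signals were taken from lists of textbook members. Of 9 ligand genes 3 were tested, and 2 were called higher at 48h, Csf1 and Il6, where 13.5% of all tested genes were. Csf1, the ligand of Csf1r, was at 1.24, 0.85 and 0.57 TPM at 0h, 4.82, 6.16 and 4.78 at 1h, 20.5, 18.2 and 20.2 at 12h and 28.6, 31.1 and 27.6 at 48h. Its groups did not overlap, and its log2 fold change at 48h was 4.94 ± 0.23 (SE, limma adjusted p = 2.11e-08). Il6 was listed at 0 in all 0h and 1h libraries and lay between 0.89 and 0.95 TPM at 48h. It passed the filter only through 12h and 48h, so it could not come out lower than at 0h. Il3, Csf3 and Kitl were listed at 0 in every library, and CSF-1 and IL-3 protein had been added to the medium.

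Of 12 related receptor chains 5 were tested. Il6st (log2 fold change 2.86 ± 0.36, SE) and Lifr (2.37 ± 0.30), the LIF receptor chain that pairs with gp130, were called higher at 48h. Of all tested genes 13.5% were called higher and 23.1% lower at that time. Il27ra, a further chain that pairs with gp130, was called lower (-2.12 ± 0.34), from a mean of 1.04 to 0.167 TPM. With a pseudocount of 1 it was not called, and with a mean of at least 1 TPM required it was not tested. None of the 5 was called at 1h in limma, where 17.8% of all tested genes were in either direction. After scaling Pdgfrb was no longer tested, and 2 of the others were called lower at 1h. These were Lifr (-1.20, limma adjusted p = 0.0428) and Il27ra (-1.20, limma adjusted p = 0.0397). Over all tested genes 656 were then called higher and 463 lower.

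All 10 listed JAK and STAT genes were tested, of which 2 were called higher at 1h (16.7% of all tested genes were), 6 at 12h (17.7%) and 4 at 48h (13.5%), and 1 was called lower at 48h (23.1%). After scaling the higher counts were 1 and 6 at 1h and 48h, beside 656 and 3264 over all tested genes. The scaled lower count at 48h was 0, beside 2889 over all tested genes. Stat2, a transcription factor of interferon signalling, had the largest log2 fold change of these 10 at 48h (4.15 ± 0.23), with a mean level of 54.0 TPM against 2.93 at 0h. Jak2, the kinase bound by the beta chain, went from 1.02 to 2.54 and 3.23 TPM (0h, 1h and 48h) and was called higher at both times (1.22 ± 0.21 and 1.57 ± 0.21). After scaling it was not called at 1h (0.59, limma adjusted p = 0.102). Stat4 rose at 48h by 1.56 ± 0.33. Stat3, the main STAT of gp130, was called at 1h (2.74 ± 0.19) and 48h (1.43 ± 0.19). Stat5b, a STAT that IL-3 and GM-CSF receptors activate, was the gene called lower at 48h, from 3.23 to 1.57 TPM (limma adjusted p = 0.00233), and after scaling it was not called (-0.62).

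Of 16 adaptors and kinases 13 were tested, of which 5 were called higher at 1h and 6 at 48h, with 1 called lower at 48h, beside the same shares of all tested genes. After scaling the 1h counts were 2 higher and 1 lower, beside 656 and 463 over all tested genes. Those of 48h were 7 and 0, beside 3264 and 2889 over all tested genes. Lyn went from 7.15 to 32.9 and 33.6 TPM (log2 fold change 2.19 ± 0.15 at 1h and 2.21 ± 0.15 at 48h). Gab2, an adaptor downstream of beta chains, went from 0.710 to 4.42 and 6.18 TPM (2.48 ± 0.26 and 2.98 ± 0.26). Tyrobp, an adaptor of myeloid receptors, was at 0.31, 0 and 0 TPM at 0h and at 0 in all 1h libraries. At 48h it was at 49.3, 50.4 and 93.3 TPM, with replicate 3 the highest. Fes, a kinase of myeloid cells, rose by 1.25 ± 0.17 at 48h. Fyn, a SRC family kinase, was the gene called lower at 48h (-1.11 ± 0.22), and after scaling it was not (-0.71).

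The 11 negative regulators moved in both directions, with 5 called higher and 2 called lower after 1h, where 16.7% and 1.08% of all tested genes were. After 48h, 3 were called higher and 1 lower. After scaling the counts at 1h were 2 and 2, beside 656 higher and 463 lower over all tested genes. Socs3, an inhibitor of gp130 signalling, was at 0.12, 0.05 and 0.04 TPM at 0h, 1.69, 3.96 and 2.47 at 1h and 2.89, 3.47 and 5.37 at 48h. It was called at both times (3.99 ± 0.36 and 4.54 ± 0.36). Cish, an inhibitor induced by STAT5, was at most 0.18 TPM at 0h and 1h and between 3.37 and 6.11 TPM at 48h (5.37 ± 0.41). It passed the filter only through 12h and 48h. Genes near 0 TPM at 0h, such as Cish and Tyrobp, could hardly come out lower than at 0h, and the list counts include them. Socs2 went from 1.35 to 12.6 TPM by 1h and was at 2.38 TPM by 48h, and was called at 1h (3.34 ± 0.38) and, in the scaled values alone, at 48h (1.38). Inpp5d, the SHIP1 phosphatase, fell by 1.98 on the log2 scale at 48h, from 28.7 to 7.56 TPM. Over all tested genes 36.6% were called in either direction at 48h.

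**Figure D4:**
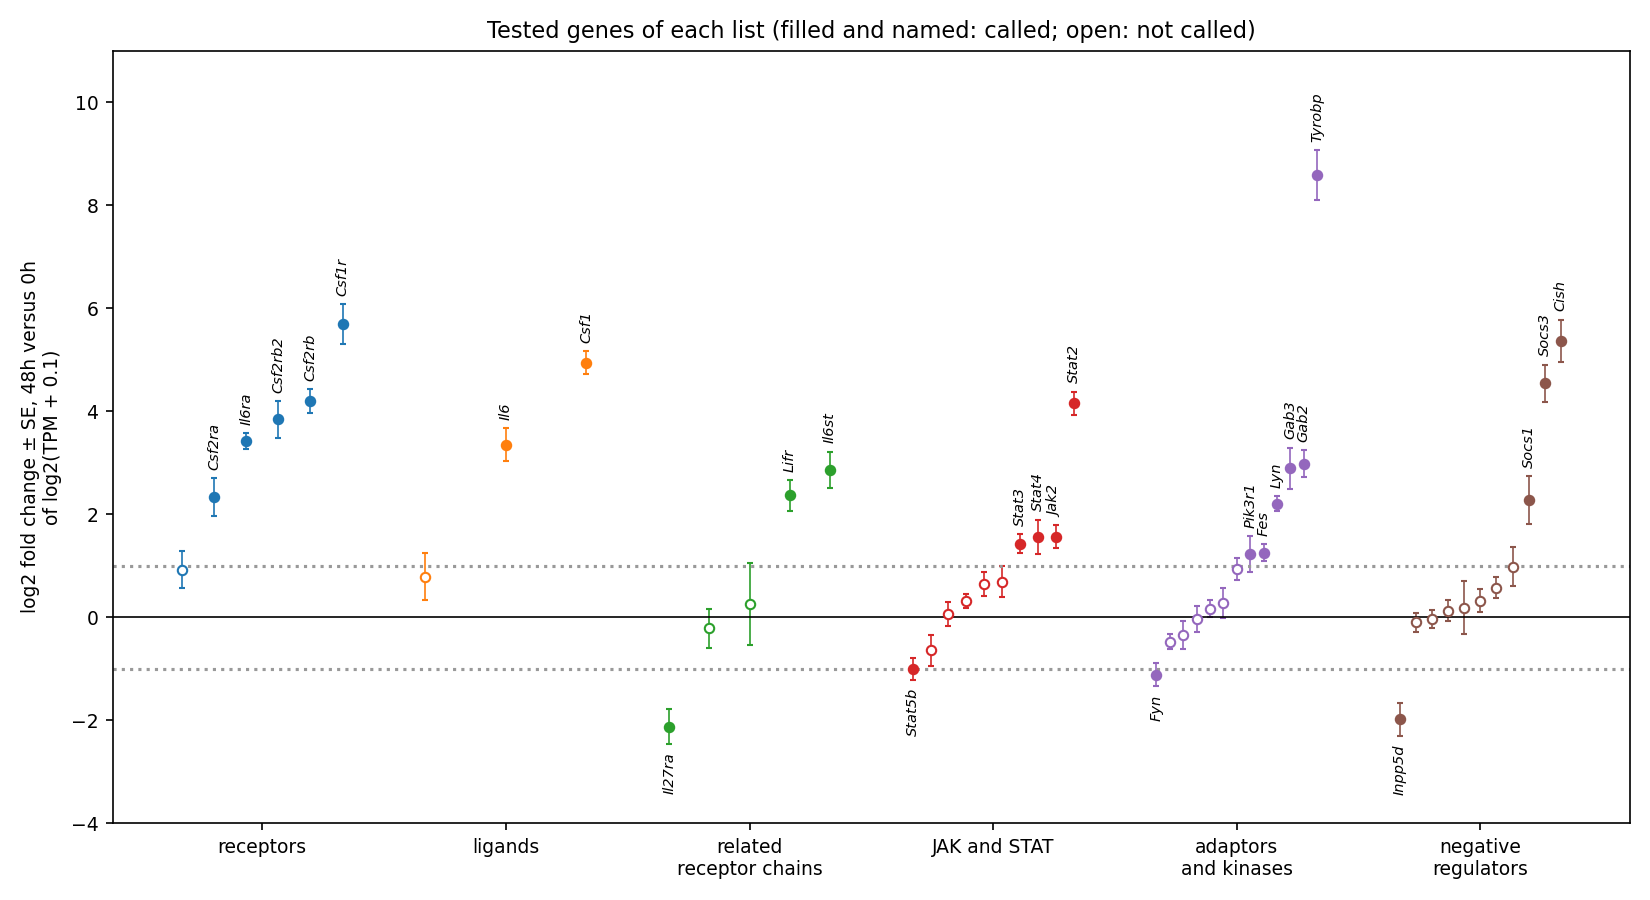
Log2 fold change at 48h against 0h (y axis, with SE) of each tested gene of the 6 lists (x axis), with called genes filled and named. All tested receptors and ligands lie above 0, and the other 4 lists hold genes on both sides of 0. Il6, at 0 TPM in the 0h libraries, could not lie below 0, and genes near 0 TPM at 0h, such as Cish and Tyrobp, could hardly do so.

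Promoter contacts were read from lists with no replicates, so they carry no error and no test. Fragments holding the start site of Csf1r, Flt3, Il3ra, Csf3r and Il6ra were listed as captured promoters. Those of Csf2rb and Csf2ra were listed only as the far end of other promoters' contacts, and none holding a start of Csf2rb2 or Kit was listed. Together the members had 36, 44, 49 and 30 contacts in the lists of 0h, 1h, 12h and 48h, of 138769, 137836, 131598 and 144072 in all. The median captured promoter fragment had 4 contacts at each time.

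Il6ra and Csf1r held most of these contacts. The Il6ra fragment (chr3:89912029-89916229) had 15, 17, 23 and 14 contacts at 0h, 1h, 12h and 48h, more than at least 78.5% of captured fragments. Of its 38 different contacts 6 were listed at all 4 times, among them fragments 47.9 kb and 57.3 kb downstream, inside Il6ra and She, and 3 upstream in Tpm3 (-162, -164 and -166 kb). Of its 15 contacts of 0h, 9 (60%) were listed at 1h, beside 57.6% of all contacts, and 8 (53.3%) at 48h, beside 55.9%. Of its 23 contacts of 12h, 11 (47.8%) were listed at 48h, beside 60.1%.

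The Csf1r fragment (chr18:61093158-61107811) had 10, 18, 17 and 9 contacts. Of its 33 different contacts 3 were listed at all 4 times, with fragments that hold starts of Cd74, Tcof1 and Hmgxb3. An upstream fragment in Pdgfrb (-16.8 kb, chr18:61078484-61088878) was listed at 1h, 12h and 48h and not at 0h. A fragment 21.2 kb downstream within Csf1r itself (chr18:61119238-61124106) was listed at 12h and 48h. Of the 10 contacts of 0h, 5 (50%) were listed at 1h, beside 57.6% of all contacts, and 5 (50%) at 48h, beside 55.9%. Of the 17 contacts of 12h, 5 (29.4%) were listed at 48h, beside 60.1%.

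The other captured promoters among the members had fewer contacts. The Flt3 fragment, whose gene was near 0 in RNA, had 6, 4, 6 and 5 contacts. These were more than in 56.4%, 45.6%, 55.8% and 50.6% of captured fragments, so near the middle. One of these, listed at all 4 times, was with a fragment on chromosome 14 (chr14:18330971-18334060) that holds the start of Ube2e1. That fragment had between 4 and 8 contacts in each list, of which between 2 and 7 were with other chromosomes. Il3ra had 2, 3, 2 and 0 contacts, and Csf3r had 2, 1, 1 and 1. The fragments of Csf2rb and Csf2ra were not listed as captured, so only contacts from other promoters could be seen. The Csf2rb fragment was contacted at 0h and 48h by the promoter of Ncf4, a subunit gene of the phagocyte oxidase, 81.2 kb away. The Csf2ra fragment was contacted by the Prdx3 promoter at 1h.

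Of the 36 contacts of members at 0h, 18 (50.0%, 95% Wilson interval 34.5 to 65.5) were also listed at 48h, beside 55.9% of all contacts. From 0h to 1h the share was 44.4% (29.5 to 60.4), beside 57.6% of all contacts, and from 12h to 48h it was 38.8% (26.4 to 52.8), beside 60.1%. These intervals cover counting error only, and contacts of 1 promoter are not independent. The 0h list gives CHiCAGO scores of at least 5 and the later lists give whole numbers, so strengths were not compared between 0h and later, and a contact that is not listed may lie just under a limit.

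**Figure D5:**
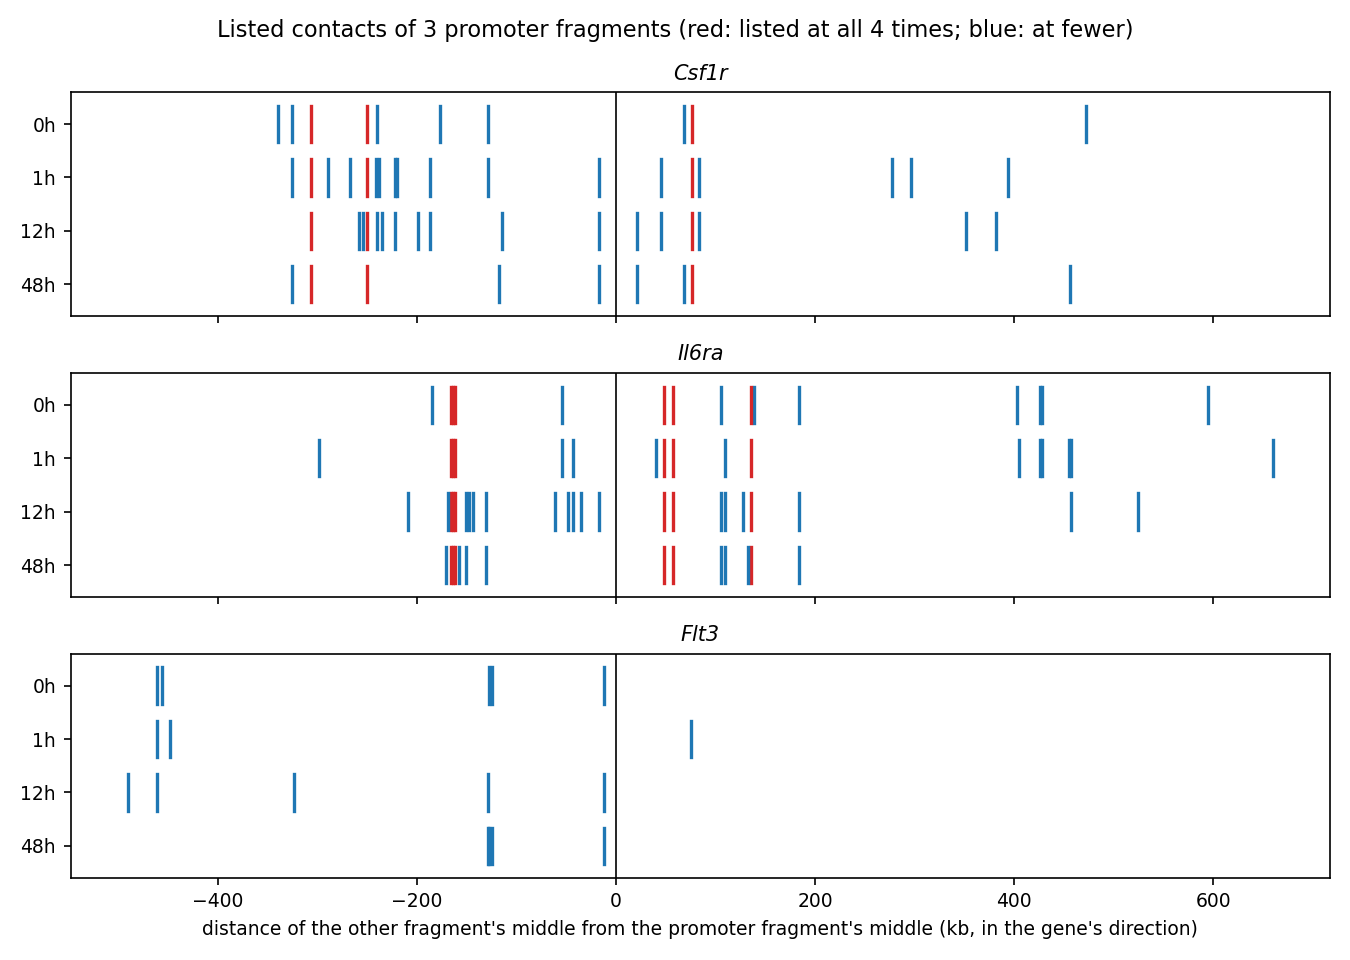
Listed contacts of the Csf1r, Il6ra and Flt3 promoter fragments by time point (rows), at the distance of the other fragment in kb in the direction of the gene (x axis), red where listed at all 4 times. Csf1r has 3 contacts drawn in red, Il6ra has 6 and Flt3 has none, and the contact of Flt3 with another chromosome is not drawn.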

How the data were processed

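RNA-seq of 12 libraries and 4 promoter capture lists were used. Groups and replicates follow the labels, which call the replicates biological, and whether these were separate cultures is not stated further, so p-values measure the spread between these libraries, which may be technical. The authors trimmed reads (Trim Galore 0.6.2), mapped them to mm10 (HISAT2 2.1.0) and deposited TPM per gene, which the submitters' processing notes link to RSEM. For promoter capture the authors merged 2 replicates per time point, and the deposited lists hold a CHiCAGO score at 0h and whole numbers at 1h, 12h and 48h, which the sources used here do not name and which were taken as counts of read pairs and not used as strengths. No value column was left unmapped (0).

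Genes with a mean of at least 0.1 TPM (16415) entered a limma 3.58.1 fit (R 4.3.3) on log2(TPM + 0.1), as 1 model of the 12 libraries, an eBayes trend and Benjamini-Hochberg adjustment over all of them. TPM are not counts, and fold changes of low genes depend on the 0.1 added. Calls needed a log2 fold change beyond 1 and an adjusted p under 0.05. The model was tested on simulated data with 20 fixed seeds. A limit of that test, first set for 1 seed and missed, was replaced by one on the mean over the seeds after the results of the real libraries were known, and the model was not changed. The mean share of false calls was slightly above the nominal one. Contacts were assigned through start sites of GENCODE M21 on GRCm38, each fragment pair once. Upstream sequences are from RefSeq (GRCm38.p6), and motifs were searched on both strands. No upstream sequence of Csf1r or Csf2rb was used, so these members were not searched for motifs. Python 3.11.15, numpy 2.4.6, scipy 1.17.1, pandas 2.3.3 and matplotlib 3.10.9 were used for the other steps.

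The members, gene lists and tests were chosen with earlier results of these data known. The rule for named genes took all 9 members, up to 4 genes of each signalling list called at 48h with the largest log2 fold change and a mean of at least 1 TPM, and the 3 genes most like each member. Stat5b, Fyn, Il6, Il27ra, Pdgfrb, Socs2 and the ligands at 0 were named after their values were seen. Alternatives varied the pseudocount, filter, scaling, trend, libraries in the fit, fold threshold, replicate block and each library left out, and, added after seeing the data, fits without replicate 3 of any time point and with a term for it. Hi-C data were not used here, and the values of 1 gene of the signalling lists are not reported here.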

Additional observations from a re-analysis of the deposited data

How the results depend on the processing

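For the members, the counts against 0h kept within 1.5 times of the reported ones under every alternative run. From 1h to 12h, 5 members were called higher in place of 3 after median-of-ratios scaling and when TPM were rescaled leaving the 20 most abundant genes out. From 12h to 48h, these scalings called 2 and 1 higher in place of 0, and leaving out 1 library at a time gave between 0 and 1 lower, the 1 being Csf2ra without replicate 3 of 48h. Directions turned for changes that were not called. At 1h against 0h, Csf2ra was at -0.39 and Il3ra at -0.39 after median-of-ratios scaling and at -0.25 and -0.25 after the other rescaling, and Il3ra ran from -0.033 (without replicate 3 of 1h) to 0.55 with 1 library left out. At 48h against 12h, Il3ra was at 0.40 and Csf2rb at 0.25 after median-of-ratios scaling, at 0.22 and 0.052 after the other, and Csf2rb2 ran from -0.016 (without replicate 3 of 48h) to 0.44. The cause was not tested. The 0h list held 1 contact of a member, in place of 36, at a score of at least 10, and 66.7% of the 0h contacts, in place of 50.0%, were kept at 48h when a fragment within 10 kb counted, beside 81.8% in place of 55.9% of all contacts.

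Not all same-numbered libraries deviated together: over 18 same-numbered pairs the correlation of deviations ran from -0.01 to 0.26, 7 were over 0.1, and 7 of 12 libraries correlated best with their own number. The 6 pairs among replicate 3 libraries were all above 0 and their 24 pairs with other libraries all below. The latter largely follows from the former, because deviations within a time point sum to 0. Fits with replicates 1 and 2 only, and with a term for replicate 3, were therefore chosen after seeing the data. The first called 2, 5 and 5 members higher against 0h and the second 2, 6 and 5. With replicates 1 and 2 only, Il3ra at 1h was at -0.18 (not called) and 1 member, Csf2ra, was called lower from 12h to 48h in place of 0 (-1.35, limma adjusted p = 0.0123). With the replicate number as a block, 2, 6 and 5 members were called higher at 1h, 12h and 48h, as without it. TPM keep no depth, so low values carry no counting limit.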
